A study of Mus musculus with 8 samples.

Results

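A group of 8 genes of fetal liver and growth was followed in the livers of male CD-1 mice, an outbred strain: the imprinted Meg3, Rian, Mirg and Dlk1 of the Dlk1-Dio3 domain, the imprinted pair Igf2 and H19, and the oncofetal liver genes Afp and Gpc3. They were taken by name from the array's probe-gene table with all their features, a feature being 1 probe spot with its own value. Of the 8 genes, 7 had a feature: Afp had 10, Meg3 had 3, Dlk1 and Gpc3 had 2 each, and Igf2, H19 and Mirg had 1 each, which makes 20 of the 31465 named features and 7 of the 20738 named genes. Rian had no feature under its name in that table and is not analysed here. The series is the mouse-liver arm of a study of sodium phenobarbital (NaPB), a barbiturate drug that works through the nuclear receptor CAR and promotes mouse liver tumours without damaging DNA. One group of mice ate a control diet with 0 ppm NaPB and the other a diet with 2500 ppm NaPB, both for 7 days. Total RNA of whole liver was hybridised to one-colour Agilent arrays, 4 per diet, so that the 8 arrays are the samples. Ages are not given in the labels, and whether each array stands for its own animal is not stated, and p-values measure the spread between these samples, which may be technical.

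Imprinted genes are transcribed mainly from the copy inherited from 1 parent, and the choice is kept by DNA methylation at control regions. In the Dlk1-Dio3 domain the maternal copy gives the noncoding RNAs Meg3, Rian and Mirg, which carry a large group of microRNAs and small nucleolar RNAs, while the paternal copy gives the proteins Dlk1, Rtl1 and Dio3. Igf2, a growth factor read from the paternal copy, and H19, a noncoding RNA read from the maternal copy, share enhancers. All of these, with the serum protein alpha-fetoprotein (Afp) and the cell-surface heparan sulfate proteoglycan glypican 3 (Gpc3), are abundant in fetal liver, are shut down after birth, and can return in liver tumours.

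The genes lie on 4 chromosomes of the GRCm38.p6 assembly, per the RefSeq tables used here. Dlk1 is at chr12:109452485-109463336, Meg3 at chr12:109540996-109571729, Rian at chr12:109603945-109661716 and Mirg at chr12:109734981-109749458. H19 is at chr7:142575530-142578146 and Igf2 at chr7:142650768-142666816, Afp is at chr5:90490714-90508907 and Gpc3 at chrX:52272426-52613974. Dlk1, Igf2, Afp and Gpc3 are protein-coding and the other four are annotated as long noncoding RNAs. The sequences of the array probes were not used here, so the exon that a feature reads is not stated.

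The promoter windows of the genes whose features stood out by diet are shown first, because they hold the starts from which these transcripts are read. Each is 300 bases of RefSeq GRCm38.p6 sequence, from 250 bases before to 50 bases after an annotated start, written 5′ to 3′ on the strand of the gene, and capitals mark every match on either strand to 4 short motifs: TATAAA (the TATA box), GTTAAT (one side of an HNF1 site), AGGTCA (a nuclear receptor element) and CTTTGA (a TCF/LEF site). Igf2 has several annotated starts, of which the most upstream and the one with most CpG are shown, both on the minus strand.
Igf2, chr7:142658755-142659054: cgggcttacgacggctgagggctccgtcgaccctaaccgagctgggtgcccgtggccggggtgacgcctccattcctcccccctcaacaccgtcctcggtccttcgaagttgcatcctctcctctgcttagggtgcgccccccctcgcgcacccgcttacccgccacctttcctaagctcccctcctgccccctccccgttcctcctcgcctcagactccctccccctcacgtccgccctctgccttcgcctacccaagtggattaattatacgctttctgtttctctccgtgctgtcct
Igf2, chr7:142666767-142667066: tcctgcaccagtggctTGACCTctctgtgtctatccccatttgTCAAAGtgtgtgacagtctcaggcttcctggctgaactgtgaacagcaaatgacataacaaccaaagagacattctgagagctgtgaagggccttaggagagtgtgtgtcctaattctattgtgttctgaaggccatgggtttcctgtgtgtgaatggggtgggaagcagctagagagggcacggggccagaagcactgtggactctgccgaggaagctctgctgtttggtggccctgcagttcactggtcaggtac
Afp, chr5:90490464-90490763: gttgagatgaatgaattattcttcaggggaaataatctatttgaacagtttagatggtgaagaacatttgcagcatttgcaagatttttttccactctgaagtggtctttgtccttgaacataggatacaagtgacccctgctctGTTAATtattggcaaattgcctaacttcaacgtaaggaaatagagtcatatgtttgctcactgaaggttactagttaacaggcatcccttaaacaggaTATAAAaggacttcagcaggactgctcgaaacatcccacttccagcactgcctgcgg
Meg3, chr12:109540746-109541045: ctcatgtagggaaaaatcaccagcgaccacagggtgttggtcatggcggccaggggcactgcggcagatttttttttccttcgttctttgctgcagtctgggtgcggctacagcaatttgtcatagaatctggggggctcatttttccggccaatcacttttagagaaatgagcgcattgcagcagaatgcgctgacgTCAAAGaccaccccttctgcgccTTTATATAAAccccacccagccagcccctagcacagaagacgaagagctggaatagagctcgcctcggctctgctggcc
The first Igf2 window holds 24 CpG and none of the 4 motifs, and 80% of the 32851 windows of the table hold fewer CpG. The upstream Igf2 window holds 2 CpG, with AGGTCA at -234 and CTTTGA at -207 from the start, both on the opposite strand. The Afp window holds 3 CpG, with GTTAAT at -105 and TATAAA at -7. The Meg3 window shown holds 13 CpG, TATAAA at -25 and, overlapping it on the opposite strand, at -29, and CTTTGA at -52 on the opposite strand. Meg3 has another annotated start downstream, not shown, whose window holds 1 CpG and AGGTCA at -141 on the opposite strand. The median window holds 7 CpG, and the shares of all windows with a match on either strand are 7.1% for GTTAAT, 16.3% for AGGTCA, 13.6% for TATAAA and 16% for CTTTGA. These matches are letters in a window and not measured binding.

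MicroRNA hairpins lie inside several of these genes, and RefSeq places 10 in the Mirg interval, 3 in Rian, 2 in Gpc3 and 1 each in Meg3, Igf2 and H19. The arrays read the host transcripts, not the mature microRNAs. The mature RNAs of the Igf2 and H19 hairpins and 3 of Mirg are shown because their hosts are the transcripts described here. Bases 2 to 8, the seed that pairs with targets, are in capitals.
miR-483-3p (in Igf2): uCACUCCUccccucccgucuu
miR-483-5p (in Igf2): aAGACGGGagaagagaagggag
miR-675-3p (in H19): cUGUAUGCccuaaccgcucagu
miR-675-5p (in H19): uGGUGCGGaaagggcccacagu
miR-410-3p (in Mirg): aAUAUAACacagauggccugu
miR-453 (in Mirg): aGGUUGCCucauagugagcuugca
miR-496a-5p (in Mirg): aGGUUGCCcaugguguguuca
miR-453 and miR-496a-5p share the seed GGUUGCC, the only seed that occurs more than once among the mature RNAs RefSeq places in these hosts.

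The values below are deposited intensities on a linear scale, already scaled by the submitters so that the 75th percentile of every array lay between 0.952 and 0.974. Values of up to 2 times the lowest value on the array were taken to be at the floor, which put the floor between 0.0506 and 0.119. It was 0.119, 0.0801, 0.0819 and 0.0649 on control arrays 1 to 4. On NaPB arrays 1 to 4 the floor was 0.0736, 0.0815, 0.0508 and 0.0506. Between 73.1% and 89.0% of the named features of an array were above it. On NaPB array 2 the table holds 3443 distinct values, against 62756 to 62839 on each other array, so its values were stored more coarsely. Control array 1 and NaPB array 4 stood apart from the rest, with limma array weights of 0.308 and 0.313 against 1.14 to 1.98 on the other arrays, and results that rest on them are also given without them. The diet showed in Cyp2b10, the standard CAR target, at 2.66 on the control diet and 304 with NaPB as geometric means (log2 fold change 6.84 ± 0.69 SE, n = 4 arrays per diet, limma adjusted p = 0.0018). On NaPB arrays 1 to 4 it read 521, 491, 430 and 77.7. The CAR target Por read 37.3, 77.4, 43.9 and 8.14 there, while Sult2a1 was lowest on NaPB array 2 (0.837, against 1.28 on array 4). Fits that leave out NaPB array 4 or weight it down thus give less say to the array with the smallest Cyp2b10 rise. Albumin, the defining product of hepatocytes, read between 109 and 611 on the 8 arrays.

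Of the 7 genes measured, Igf2 alone passed the test between diets, and it was lower with NaPB. Meg3, Mirg, Dlk1, H19, Afp and Gpc3 did not pass it. By its brightest feature none of these 6 had an unadjusted p below 0.05, where 10.1% of all genes did. The test was a linear model on log2 intensity, with each gene read by its brightest feature and p-values adjusted over all 20738 genes, and it called 209 genes at an adjusted p below 0.05, which is 1.01% of the genes. At the level of features, 1 of the 20 member features was called, against 0.849% of all named features. An unadjusted limma p below 0.05 was found for 4 of the 20: the Igf2 feature, Meg3 feature 2 and Afp features 2 and 5. The share of all named features at that threshold was not counted, so the 4 of 20 has no background to be read against. Features of 1 gene are not replicates either. The median log2 fold change (NaPB minus control) was -0.31 over the 7 genes and 0.01 over all genes, with 2 of the 7 above 0. The floor was lowest on NaPB arrays 3 and 4, so values at the floor can read as a fall. The 2 member features at the floor on all 8 arrays read -0.41 (Dlk1 feature 2) and -0.38 (Gpc3 feature 2). The medians are not corrected for this. The diets did not overlap for 1 of the 7 genes, where 7.04% of all genes had no overlap, and for 3 of the 20 features, where 6.72% of all named features had none. Those 3 were the Igf2 feature and Meg3 feature 2, both lower with NaPB, and Afp feature 2, higher with NaPB.

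**Figure D1:**
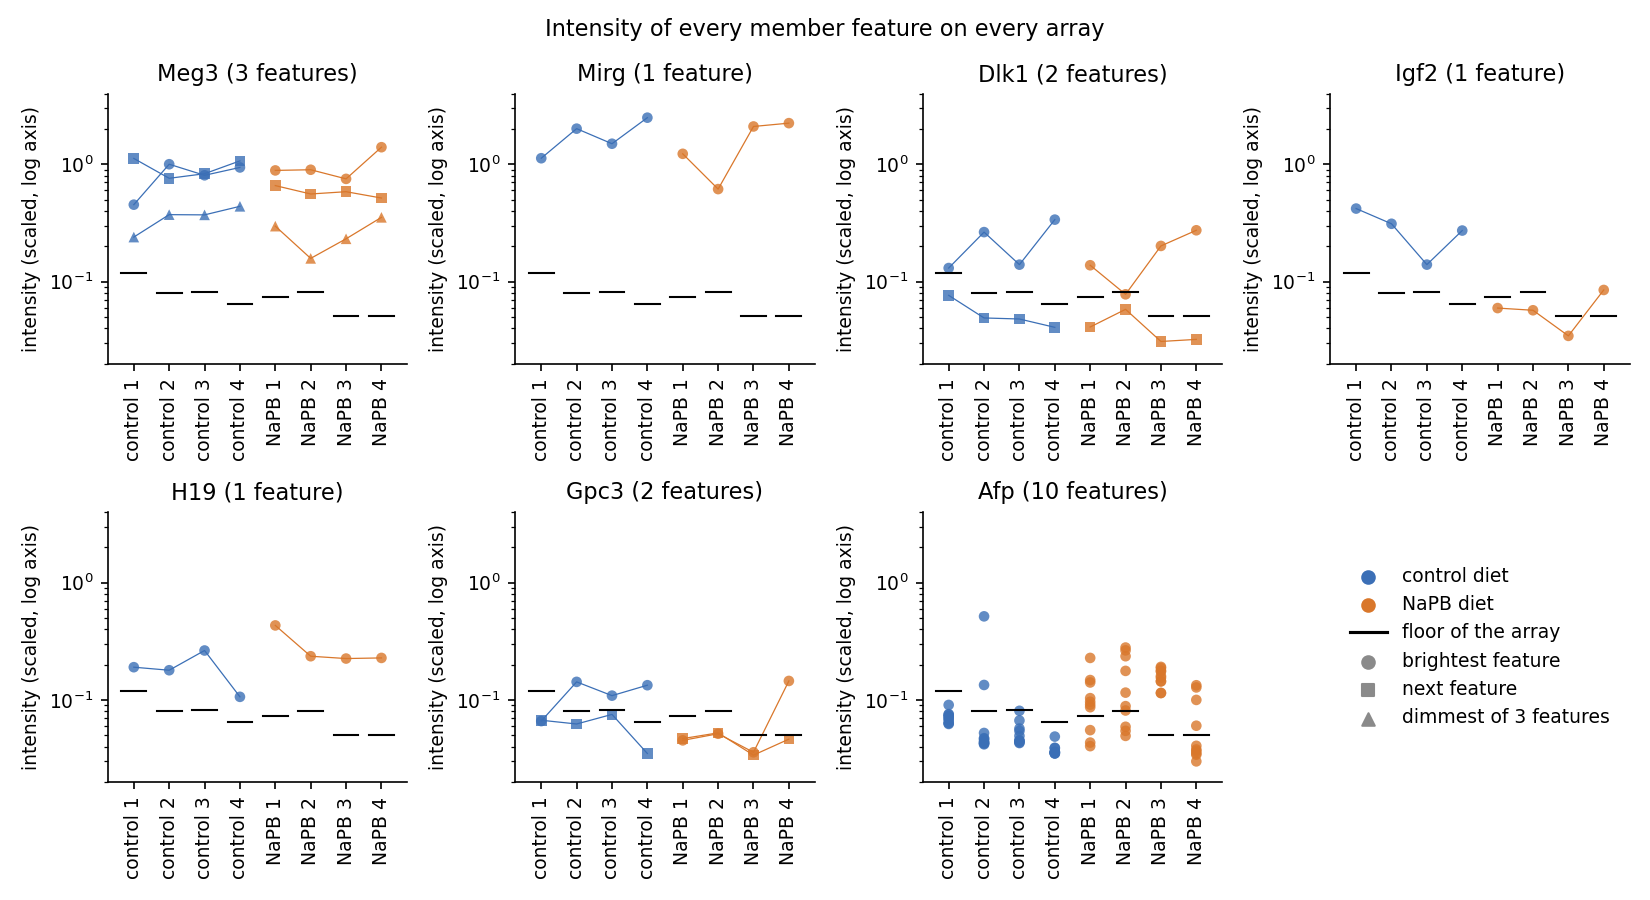
Intensity (log axis, scaled by the submitters) of all 20 member features on each of the 8 arrays, control in blue and NaPB in orange, with a black bar at the floor of each array and lines joining the arrays of a diet for the eye only. The 4 control values of Igf2 lie above the 4 NaPB values, of which 3 are under the floor bar, and most Afp points lie above the bar on NaPB arrays 1 to 3.

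Igf2 encodes insulin-like growth factor 2, the main fetal growth factor of the liver, whose transcript is low in adult mouse liver. On control arrays 1 to 4 its feature read 0.419, 0.311, 0.139 and 0.272, and on NaPB arrays 1 to 4 it read 0.0594, 0.0569, 0.0345 and 0.0848. All 4 control values were above their array's floor and above every NaPB value, and NaPB arrays 1 to 3 were at the floor while NaPB array 4 was above it. The geometric mean fell from 0.265 to 0.0561, a log2 fold change of -2.24 ± 0.39 (SE, n = 4 arrays per diet, 95% confidence interval -3.11 to -1.37) or 4.73-fold lower, with a limma adjusted p of 0.0274. Because 3 of the 4 NaPB values were at the floor, that fold rests on values that the array could not separate from its lowest spots. Its size also depends on floors that differ between arrays. The highest floor of any array, 0.119, lay above all 4 NaPB values and below all 4 control values. By p, Igf2 stood at rank 114 of all genes.

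The Igf2 difference kept its direction under all 18 other ways of processing in which it was tested, and passed the threshold in 11 of them, with limma adjusted p between 0.00704 and 0.147. Leaving out control array 1, 2 or 4, or NaPB array 1, 2 or 3, ended the call, with adjusted p of 0.0561, 0.0801, 0.0814, 0.0866, 0.0722 and 0.0846. Without control array 3 it was 0.0237, without NaPB array 4 it was 0.0236, and without both arrays that stood apart it was 0.0283. Once NaPB array 4 is left out, every NaPB value of Igf2 is at the floor. A pseudocount of 1, which is larger than every Igf2 value, shrank the log2 fold change to -0.28 and gave an adjusted p of 0.147.

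**Figure D2:**
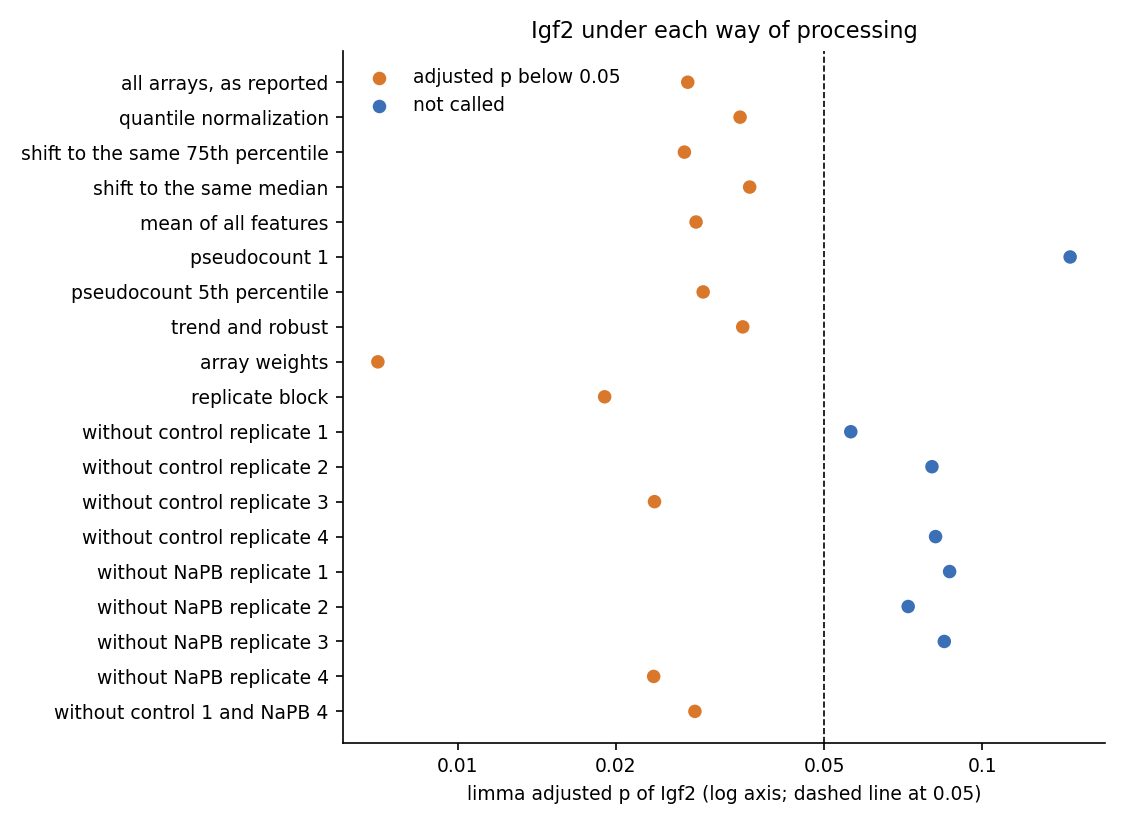
Adjusted p of Igf2 from limma (log axis, dashed line at 0.05) for the 8 arrays as reported and for each of 18 alternatives, orange where it is below 0.05 and blue where it is not. Of the 8 single arrays left out, 6 move Igf2 past the line, to between 0.0561 and 0.0866.

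H19, the noncoding RNA that neighbours Igf2, did not pass the test. It read 0.191, 0.179, 0.264 and 0.107 on control arrays 1 to 4 and 0.432, 0.236, 0.226 and 0.229 on NaPB arrays 1 to 4. The diets overlapped, since control array 3 read more than 3 of the NaPB arrays, and no array was at the floor. The log2 fold change was 0.61 ± 0.35 (SE, n = 4 arrays per diet, 95% confidence interval -0.16 to 1.38, limma adjusted p = 0.647). Over the 8 arrays the Pearson r of Igf2 and H19 in log2 intensity was -0.60, and -0.22 once each diet's mean was taken away.

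Of the 18 measured genes around Igf2, H19 and the neighbouring Kcnq1ot1 imprinted cluster, 0 were called by limma and 1 had an unadjusted p below 0.05. Their median log2 fold change was -0.01, with 9 above 0. The smallest p belonged to Tnni2, a troponin subunit of fast muscle, at 1.84 on the control diet and 0.859 with NaPB (geometric means, log2 fold change -1.10 ± 0.27 SE, n = 4 arrays per diet, limma adjusted p = 0.109). Next was Nap1l4, a histone chaperone, at 0.59 in log2 fold change (limma adjusted p = 0.512).

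In the Dlk1-Dio3 domain none of the measured members passed the test. Mirg, the host of the distal microRNAs, read 1.12, 2.01, 1.49 and 2.49 on control arrays 1 to 4 and 1.23, 0.613, 2.10 and 2.24 on NaPB arrays 1 to 4. The diets overlapped and NaPB array 2 was the lowest of all. Its log2 fold change was -0.31 ± 0.44 (SE, n = 4 arrays per diet, limma adjusted p = 0.877), and it became 0.07 without NaPB array 2.

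Dlk1, a membrane protein of the Notch ligand family found on hepatoblasts, was read by a dim feature and by one that was at the floor on all 8 arrays. The dim feature read 0.130, 0.264, 0.139 and 0.337 on control arrays 1 to 4 and 0.138, 0.0778, 0.201 and 0.273 on NaPB arrays 1 to 4. The diets overlapped, and NaPB array 2, again the lowest, was at the floor. The log2 fold change was -0.36 ± 0.45 (SE, n = 4 arrays per diet, limma adjusted p = 0.858), with a 95% confidence interval from -1.35 to 0.63. That interval holds a fall of more than 1 log2 unit as well as a smaller rise.

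Meg3, the first noncoding RNA of the maternal copy, gave features that did not move together. Its brightest feature read 0.452, 0.999, 0.804 and 0.938 on control arrays 1 to 4 and 0.885, 0.896, 0.75 and 1.39 on NaPB arrays 1 to 4, with a log2 fold change of 0.32 ± 0.33 (SE, n = 4 arrays per diet, limma adjusted p = 0.83). Its feature 2 read 1.12, 0.758, 0.83 and 1.07 on the control arrays and 0.657, 0.557, 0.583 and 0.515 on the NaPB arrays. Here all 4 NaPB values lay below all 4 control values, while the brightest feature overlapped.

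Meg3 feature 2 had a log2 fold change of -0.69 ± 0.26 (SE, n = 4 arrays per diet) and did not pass the test over all features (limma adjusted p = 0.368). Feature 3, at 0.239 to 0.437 on the control arrays and 0.157 to 0.352 on the NaPB arrays, had a log2 fold change of -0.48. The array annotation assigns features 2 and 3 to one RefSeq transcript of Meg3 and the brightest to another. Over the 8 arrays the Pearson r was -0.61 between features 1 and 2, 0.38 between features 1 and 3, and 0.38 between features 2 and 3. The sign of the Meg3 difference depended on the feature: with the 3 features averaged it was -0.28, and without control array 1 and NaPB array 4 the brightest feature gave -0.11.

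**Figure D3:**
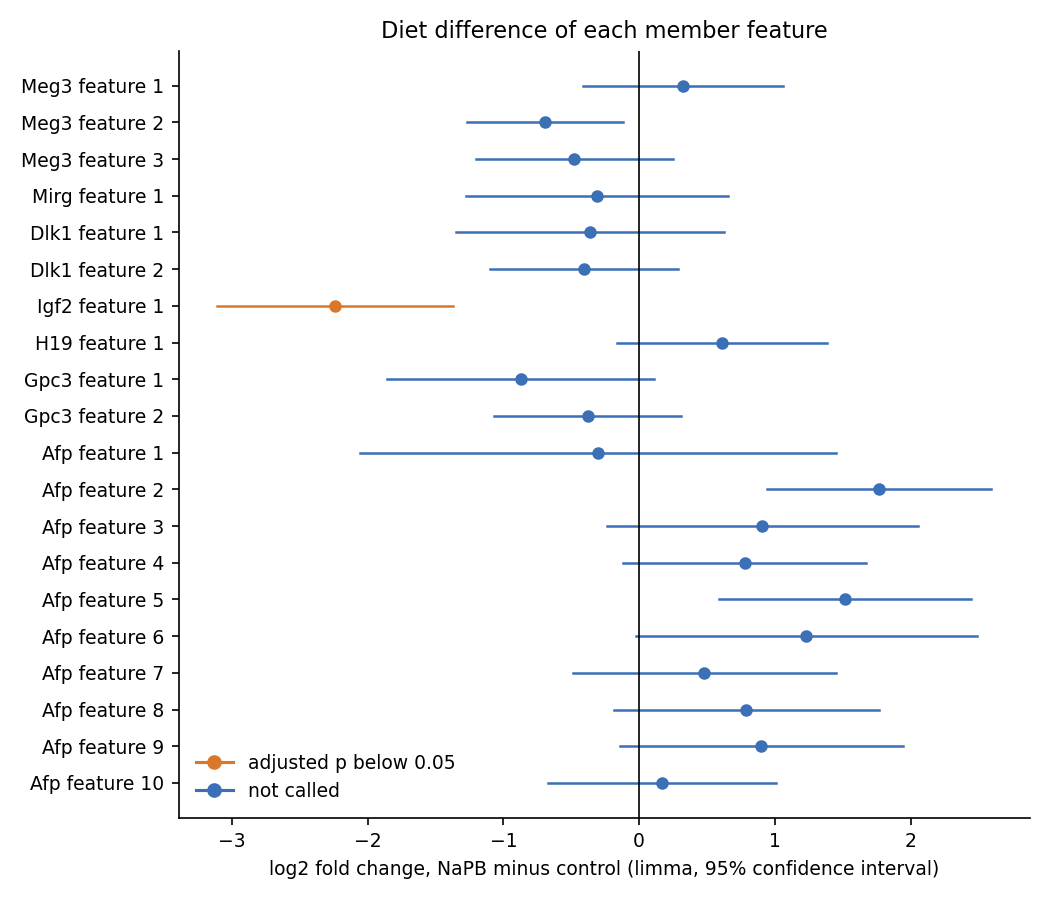
Log2 fold change (NaPB minus control) of each of the 20 member features with its 95% confidence interval from limma, 4 arrays per diet, orange where the adjusted p over all named features is below 0.05. Igf2 is the only orange feature, the 3 Meg3 features lie on both sides of 0, and 9 of the 10 Afp features lie to its right.

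Across arrays Mirg, Dlk1 and Rtl1 had like values, and the brightest Meg3 feature less so. In log2 intensity over the 8 arrays, Mirg and Dlk1 had a Pearson r of 0.96 and a Spearman rho of 0.98, although they are read from opposite parental copies and lie at opposite ends of the named genes. Without the arrays farthest from the median of Mirg, NaPB array 2 and control array 1, the r was 0.93, and with each array's median taken away it was 0.94. Rtl1, the retrotransposon-derived paternal gene between them, had an r of 0.95 with Mirg and 0.91 with Dlk1. The brightest Meg3 feature had an r of 0.37 with Mirg and 0.44 with Dlk1. The other Meg3 features, which did not move with the brightest, were not compared with Mirg and Dlk1, so these values do not describe Meg3 as a whole.

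These values describe 8 points that share library and scan, and the pattern is not particular to the domain. Of 14539 other genes above the floor on all arrays, 124, Rtl1 among them, had an r of at least 0.9 with Mirg, and the fetal transcription factor gene Sox11, outside the domain, had one of 0.90. The log2 values of Mirg, Dlk1, Rtl1 and the brightest Meg3 feature had an r of 0.69, 0.72, 0.78 and 0.83 with the median of the array. With the array median taken away, the r of that Meg3 feature with Mirg was 0.04. Rtl1 read 0.285 on NaPB array 2 and 0.429 on control array 1, and 0.737 to 1.74 on the other arrays. High and low arrays of Mirg, Dlk1 and Rtl1 were found within each diet, and the diets overlapped.

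Of the 11 measured genes of the domain and its flanks beside the members, 0 were called by limma, 2 had an unadjusted p below 0.05, and the median log2 fold change was -0.01. Dio3, the enzyme that inactivates thyroid hormone, had a log2 fold change of -0.10 ± 0.57 (SE, n = 4 arrays per diet, limma adjusted p = 0.973), and Rtl1 one of 0.04 ± 0.57 (limma adjusted p = 0.990). The smallest p belonged to Begain and Wars. Begain, which lies beside Dlk1, was at -1.29 in log2 fold change (limma adjusted p = 0.226), with 2 control arrays and all 4 NaPB arrays at the floor, and Wars, a tryptophan tRNA synthetase, one of 0.66 (limma adjusted p = 0.403).

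Afp, the fetal counterpart of albumin, did not pass the test with its brightest feature, but its 10 features pointed mostly one way. That brightest feature read 0.0727, 0.517, 0.0670 and 0.0353 on control arrays 1 to 4 and 0.0405, 0.177, 0.145 and 0.0368 on NaPB arrays 1 to 4. Control array 2 was the highest of the 8, and the log2 fold change was -0.30 ± 0.80 (SE, n = 4 arrays per diet, limma adjusted p = 0.938). It was 0.50 without control array 2.

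The other 9 Afp features all had a log2 fold change above 0, from 0.17 to 1.77, but most of their control values were at the floor, so these sizes are not measured ones. Feature 2 read 0.0626, 0.0426, 0.0435 and 0.0352 on control arrays 1 to 4, all at the floor, and 0.0869, 0.280, 0.175 and 0.128 on NaPB arrays 1 to 4, all above it. The diets did not overlap, and NaPB was at least 1.81-fold higher, counted from the control arrays' floors. Its log2 fold change of 1.77 ± 0.38 (SE, n = 4 arrays per diet) gave a limma adjusted p of 0.0625 over all features, which missed the threshold.

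Feature 5 came next, at 0.0691, 0.0431, 0.0430 and 0.0350 on the control arrays and 0.228, 0.116, 0.187 and 0.0604 on the NaPB arrays. All its control values were at the floor and all its NaPB values above it, but NaPB array 4 was below control array 1. It had a log2 fold change of 1.51 ± 0.42 (SE, n = 4 arrays per diet, limma adjusted p = 0.173). Feature 6 read 0.0683, 0.0467, 0.0495 and 0.0362 on the control arrays and 0.141, 0.265, 0.155 and 0.0300 on the NaPB arrays, with a log2 fold change of 1.23. Both passed without NaPB array 4, which had the lowest Cyp2b10 of the NaPB arrays, at limma adjusted p of 0.0324 and 0.0310. In 8 of the 10 features all control arrays were at the floor. Counted from the control arrays' floors, NaPB was at least 1.56-fold higher in feature 5 and 1.36-fold in feature 6. In features 7, 8 and 10 the NaPB geometric mean (0.0796, 0.0830 and 0.0592) did not reach the mean floor of the control arrays, so no lower bound is given.

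With the 10 features averaged, the log2 fold change of Afp was 0.82 ± 0.35 (SE, n = 4 arrays per diet, limma adjusted p = 0.476), opposite in sign to the brightest feature. Features of 1 gene share a target and are not replicates. Between them the Pearson r over the 8 arrays ran from -0.01 to 0.94 with a median of 0.55 over 45 pairs. All 10 carry the same RefSeq transcript in the array annotation.

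Counted array by array, 0, 2, 0 and 0 of the 10 Afp features were above the floor on control arrays 1 to 4, and 7, 7, 10 and 4 on NaPB arrays 1 to 4. That is 2 of 40 values on the control diet and 28 of 40 with NaPB, and every NaPB array had more features above the floor than any control array. The exact two-sided permutation test over the 8 arrays gave p = 0.0286, the smallest that its 70 assignments allow. This count was chosen after the values were seen. Once the counts separate the diets fully, the test can only give its smallest p, so that p adds nothing to the counts. The floors of the arrays differ, and NaPB arrays 3 and 4 had the lowest: with the highest floor of any array used on all of them, the counts were 0, 2, 0 and 0 against 3, 4, 8 and 2, and the exact permutation p was 0.0571.

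The same count can be set against other genes. Of the 276 genes with 10 features, 150 had at least 1 of 80 values at the floor, and in 5 of these, 3.33%, the NaPB arrays all had more features above the floor than any control array. They were Afp, Hao2, Mns1, Ncs1 and Serpinb3c, and in 0 genes were all NaPB arrays lower. This share uses each array's own floor, lowest on NaPB arrays 3 and 4, which favours counts that are higher with NaPB. It was not counted with the highest floor on every array, where Afp itself no longer separated the diets. These genes were named after their values were seen. A gene could reach this pattern only if every control array had a feature at the floor. The 150 also hold any genes that could not reach it, so the share can understate how often the pattern is met.

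**Figure D4:**
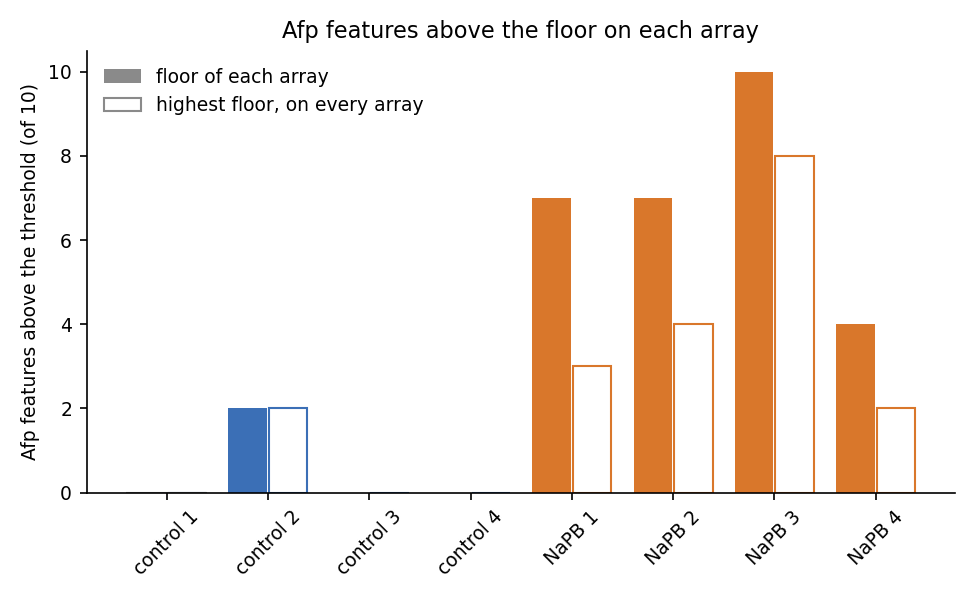
Number of the 10 Afp features above the floor on each array, filled bars for the array's own floor and open bars for the highest floor of any array. Control arrays have 0 to 2 features above their own floor and NaPB arrays 4 to 10, while with the common floor control array 2 and NaPB array 4 both have 2.

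The relatives of Afp in the albumin gene family did not pass the test either. Albumin, the main serum protein of the adult liver, was at 452 on the control diet and 191 with NaPB (geometric means), a log2 fold change of -1.24 ± 0.36 (SE, n = 4 arrays per diet, limma adjusted p = 0.19). Afamin, a vitamin E carrier encoded by Afm, gave -0.19 ± 0.36 on the same scale (limma adjusted p = 0.911). The sign of Afm turned without NaPB array 4, to 0.10.

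Gpc3, which binds growth factors and the hedgehog ligand at the cell surface, did not pass the test. Its brighter feature read 0.0662, 0.143, 0.109 and 0.134 on control arrays 1 to 4 and 0.0454, 0.0516, 0.0359 and 0.146 on NaPB arrays 1 to 4. Control array 1 and NaPB arrays 1 to 3 were at the floor, and NaPB array 4 was the highest of the 8, while the other 3 NaPB values lay below every control value. The log2 fold change was -0.87 ± 0.45 (SE, n = 4 arrays per diet, limma adjusted p = 0.582).

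The array that broke the order of Gpc3, NaPB array 4, was one of the pair that stood apart from the rest. Without control array 1 and NaPB array 4 the log2 fold change was -1.54 with a limma adjusted p of 0.0235, and with limma array weights it was -1.38 with 0.0317, so that Gpc3 passed the test in both. Without the pair every NaPB value left was at the floor, so the size of that fold is not a measured one. The weights give NaPB array 4 little say in the other fit. Control array 1, the lowest control value and the only one at the floor, also has little or no say in both fits. With 1 array left out at a time Gpc3 did not pass, at limma adjusted p of 0.0956 to 0.909. The other Gpc3 feature was at the floor on all 8 arrays. Of the 5 other glypicans, 0 were called by limma and 1 had an unadjusted p below 0.05. Gpc5 had the smallest p, with a log2 fold change of -1.16 ± 0.33 (SE, n = 4 arrays per diet, limma adjusted p = 0.181) and no overlap between diets, and Gpc4 had one of -0.37 (limma adjusted p = 0.856).

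Other genes of the same biology were taken from lists. Among 34 further imprinted genes 0 were called by limma and 4 had an unadjusted p below 0.05, with a median log2 fold change of -0.08 and 12 above 0. Magel2, a ubiquitin ligase regulator of the Prader-Willi region, had the smallest p. It read 2.73, 0.216, 0.234 and 0.180 on control arrays 1 to 4 and 0.0442, 0.0486, 0.0549 and 0.123 on NaPB arrays 1 to 4, without overlap, and control array 1 was far above the other control arrays. Its log2 fold change was -2.69 ± 0.77 (SE, n = 4 arrays per diet, limma adjusted p = 0.182), and it shrank to -1.76 without control array 1 (limma adjusted p = 0.0792). Without both control array 1 and NaPB array 4 it was -2.09 (limma adjusted p = 0.00607). Mest, an imprinted hydrolase, was next at 1.36 (limma adjusted p = 0.308), with its other 11 features between -0.66 and 0.77.

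Among 25 other genes of fetal liver and hepatoblasts, 1 was called higher and 0 lower, with a median log2 fold change of 0.17 and 14 above 0. The called gene was Prom1, which encodes the progenitor surface protein prominin-1. It read 0.167, 0.0433, 0.135 and 0.0557 on control arrays 1 to 4 and 8.14, 5.09, 7.82 and 0.686 on NaPB arrays 1 to 4, without overlap, with 2 control arrays at the floor. The log2 fold change was 5.49 ± 0.76 (SE, n = 4 arrays per diet, limma adjusted p = 0.00802).

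Prom1's other feature was at 0.76 in log2 fold change (limma adjusted p = 0.601 over all features), and the gene was not called with a pseudocount of 1. The remaining 24 genes of the list, among them the fetal RNA-binding proteins Lin28a, Lin28b and Igf2bp1 to Igf2bp3, did not pass the test. Igf2bp1 and Igf2bp3, which bind Igf2 transcripts, were at the floor on all arrays. Prom1 also stands in the list of cholangiocyte and progenitor markers, where the other 6 measured markers did not pass. The summed intensity of these 6 was 1.95 to 5.20 on the control arrays and 3.56 to 4.87 on the NaPB arrays, which overlap, and 2.12 to 5.25 against 5.55 to 12.7 with Prom1 included. In bulk RNA of this kind, fewer cells of a type and less RNA per cell cannot be told apart.

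Of the 16 measured genes of the IGF axis (receptors, binding proteins and their adaptors), 0 were called by limma, 5 had an unadjusted p below 0.05, and 5 had a log2 fold change above 0. The median was -0.51 and stayed below 0 under all the alternatives run. Irs2, an adaptor of the insulin and IGF receptors, was at 8.21 on the control diet and 3.84 with NaPB (geometric means, log2 fold change -1.10 ± 0.31 SE, n = 4 arrays per diet, limma adjusted p = 0.167). Ghr, the growth hormone receptor, gave -0.999 ± 0.37 (limma adjusted p = 0.348). Both had no overlap between diets.

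Of the 26 measured regulators of these genes (imprint keepers, DNA methylation enzymes, Zhx and Zbtb repressors of Afp, and liver transcription factors), 0 rose and 1 fell, with a median of -0.27 and 10 above 0. The one that fell was Dnmt3l, a cofactor of the methyltransferases that set imprints in germ cells. It read 1.94, 1.03, 1.34 and 1.15 on control arrays 1 to 4 and 0.369, 0.459, 0.477 and 0.434 on NaPB arrays 1 to 4, and every NaPB value was below every control value. The log2 fold change was -1.61 ± 0.28 (SE, n = 4 arrays per diet, limma adjusted p = 0.0252), 3.06-fold lower.

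The Dnmt3l call ended in 5 of the 8 fits that left out 1 array, without control array 3 (0.0894) or 4 (0.0656) or NaPB array 1 (0.103), 2 (0.0676) or 3 (0.0770), all limma adjusted p. Dnmt1, the maintenance methyltransferase, was at 1.64 on the control diet and 0.808 with NaPB (log2 fold change -1.02 ± 0.25 SE, n = 4 arrays per diet, limma adjusted p = 0.0955), again without overlap, and passed under 6 of the 20 alternatives. Zhx2, a repressor of Afp, H19 and Gpc3 in adult mouse liver, was at the floor on all arrays. Zbtb20, which also represses Afp after birth, was at -0.44 in log2 fold change (limma adjusted p = 0.828), and Ctcf, the insulator protein of the Igf2-H19 control region, one of -0.39 (limma adjusted p = 0.78).

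The Notch pathway, in which Dlk1 is a noncanonical ligand, had 0 of 16 genes called by limma, 4 with an unadjusted p below 0.05 and a median of 0.09, and the smallest p belonged to the target gene Heyl at 1.47 (limma adjusted p = 0.177) and the receptor Notch3 at 1.02 (limma adjusted p = 0.219). Heyl had all 4 control arrays at the floor and no NaPB array there. The 15 pericentral beta-catenin targets had 0 called by limma, 4 with an unadjusted p below 0.05 and a median of -0.28, with Slc1a2, a glutamate transporter, at -1.36 (limma adjusted p = 0.126) and Oat, ornithine aminotransferase, at -1.19 (limma adjusted p = 0.213). By contrast 4 of the 7 CAR responders were called, all higher. The lists are described by these counts and medians, beside 1.01% of all genes called and 10.1% with an unadjusted p below 0.05.

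**Figure D5:**
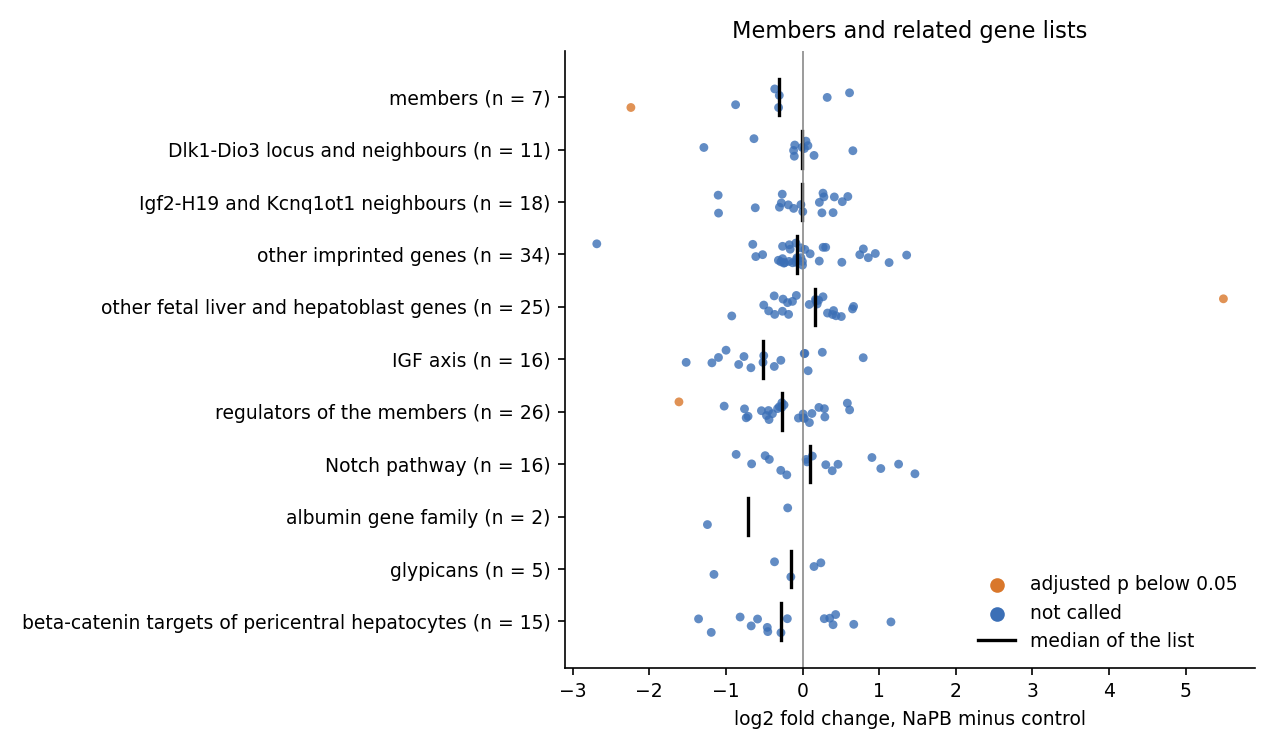
Log2 fold change (NaPB minus control) of the 7 measured members and of the measured genes of 10 related lists, each point 1 gene by its brightest feature, orange where the limma adjusted p is below 0.05, with a black bar at the median of the list. The 3 orange points are Igf2, Prom1 and Dnmt3l, and the medians lie between -0.72 and 0.17.

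Markers of other liver cells were measured beside these genes. The 7 Kupffer cell and macrophage markers all had a log2 fold change below 0 with a median of -0.44, none called, and a summed intensity of 28.5 to 31 on the control arrays and 20.6 to 24 on the NaPB arrays. One of these 7, Timd4, was at the floor on all arrays, so its value is not a measured fall. The 10 stellate cell and fibroblast markers had a median of -0.14, the 8 endothelial markers one of -0.05 and the 7 hepatocyte markers one of -0.40, with none called. The 5 measured neutrophil markers had log2 fold changes above 0 with a median of 0.35, but that of Csf3r was only 0.0014, at 172 on both diets. Of the 5, 1 was called: S100a8, a calcium-binding protein of neutrophils, rose by 6.43 ± 1.04 on the log2 scale (SE, n = 4 arrays per diet, limma adjusted p = 0.0176). That call ended in 5 of the 8 fits that left out 1 array. The other 4 did not pass, nor did any of the 7 lymphocyte markers, with a median of 0.24 and 5 above 0. The 5 measured erythroid markers, the lineage that forms blood in fetal liver, had a median of -0.20 and none called. An unadjusted p below 0.05 was found for 1 marker each of Kupffer, stellate and endothelial cells and neutrophils, for 0 of lymphocytes, and for 2 each of hepatocytes and erythroid cells. The part of cell makeup in the Igf2 and Afp values was not tested.

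The genes whose values over the 8 arrays were most like those of 3 members were named by the highest Pearson r among 14540 genes above the floor on all arrays. For the brightest Meg3 feature they were Tagln3, Olfm1, Mmp21, Tlr11 and Chmp4c, each with an r of 0.98. For H19 they were Fam168a, Zbtb25, Olfr1466, Narf and Btg1c, with r from 0.89 to 0.92. For the brightest Afp feature they were Brsk1, Traf5, Gpatch3, Olfr978 and Pkd2l2, with r from 0.88 to 0.95. With 8 points and this many genes searched, high values arise readily, and the points share the arrays' medians, with which the brightest Meg3 feature had an r of 0.83.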

How the data were processed

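Total RNA of livers of male CD-1 mice was measured on one-colour Agilent arrays, 4 on a diet with 0 ppm NaPB and 4 on a diet with 2500 ppm, grouped by the labels. Scans were quantified with Agilent Feature Extraction 10.7, per the submitters' processing notes. The deposited table holds linear intensities of single spots, scaled by the authors with a rule that is not given in the sources used here, nor are background correction and flags. Array number and the floor, not read depth, limit the precision.

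Of the 62976 features, 31465 carried a gene symbol, and 3282 symbols were updated through RefSeq tables of GRCm38.p6. The log2 intensity, with no pseudocount, rescaling or filter, was modelled in limma 3.58.1 (R 4.3.3; lmFit and eBayes, diet as the only term, two-sided), once over 20738 genes, each by its brightest feature, and once over all named features. P-values were Benjamini-Hochberg adjusted over everything tested, called below 0.05, and the model was tested on simulated data. The simulation used each gene's own mean and spread with normal noise and no floor. There the test called 7.6% of changes of 1 log2 unit, 65.2% of 2, 84.8% of 3 and 94% of 4. A gene that did not pass may therefore still have changed by 1 log2 unit or more. A fold against a diet with all arrays at the floor is a lower bound, from the mean log2 floor of that diet's arrays.

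The members and gene lists were chosen with earlier results of these data known. Named are all members, the called genes of each list (at most 4) or otherwise the 2 with the smallest p, Cyp2b10, and the 5 genes nearest to Meg3, H19 and Afp. Other genes named were chosen after their values were seen. Alternatives changed the normalization, filter, pseudocount, feature choice, model and arrays included.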

Additional observations from a re-analysis of the deposited data

Results flagged for a closer look

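H19 on NaPB array 1 lay apart from its diet: it read 0.432, and the other 3 NaPB arrays read between 0.226 and 0.236. The gap was 0.93 of the range of the 4 log2 values, above the critical value of Dixon's test. It was the only such value among 40 groups of 4 arrays (20 features in each diet), of which chance alone would pick about 1 in 20. Without that array the log2 fold change of H19 was 0.39, against 0.61 with all 8 arrays.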

How the results depend on the processing

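The genes called, 209 with all arrays, became 328 after quantile normalization, 111 with arrays shifted to the same median, 812 with array weights, 135 with the replicate number as a block, 570 without control array 1 and NaPB array 4, and 88 to 365 when 1 array was left out. The member genes called, 1 with all arrays, were 0 with genes above the first quartile or above the median (both filters remove Igf2), 0 with a pseudocount of 1, 2 with array weights and 2 without the pair of arrays, Igf2 and Gpc3 in both, and 0 to 1 when 1 array was left out. The features called, 267, became 643 with unnamed features included, 417 after quantile normalization, 701 without the pair, and 111 to 484 when 1 array was left out. The member features called, 1, became 4 without the pair and 0 to 3 when 1 array was left out. The same replicate numbers in both diets did not pair the arrays: the correlation of the deviations of same-numbered arrays was 0.230, -0.286, 0.038 and 0.231, and not every array correlated best with its own number. With that block Igf2 was called (adjusted p 0.0190) and Dnmt3l was not (0.0762). Dnmt3l was also not called with the median shift (0.0698).

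Among genes that were not called, the sign of the log2 fold change turned for Meg3 (-0.28 with features averaged, -0.00074 with array weights, -0.11 without the pair, the last also for its brightest feature alone), Afp (0.82 with features averaged), Afm (0.0908 with array weights, 0.27 without the pair), Rtl1 (-0.37 with array weights, -0.62 without the pair) and Zbtb20 (0.15 without the pair). When 1 array was left out, Mirg and its feature ranged from -0.55 to 0.0733, Afp and its brightest feature from -0.79 to 0.50, Afp feature 10 from -0.15 to 0.42, Afm from -0.38 to 0.10, Rtl1 from -0.29 to 0.58, Dio3 from -0.34 to 0.47 and Zbtb20 from -0.68 to 0.0416. Of the genes named from lists and not called, Tnni2 passed under 4 alternatives, Dnmt1 under 6, Heyl under 3, Magel2 under 2, and Alb, Ghr, Irs2 and Slc1a2 under 1 each. The causes were not tested. The difference of Afp features above the floor, 6.5 per array, was 3.75 with the highest floor on every array and 6.0 and 4.5 with floors of 1.5 and 3 times the lowest value, thresholds added after seeing the data. Igf2, Dlk1, Gpc3 and Afp lie near the floor, where the arrays resolve few differences, and the single features of Igf2, H19 and Mirg have no second probe as a check.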
